A study of Homo sapiens with 4 samples.

Results

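The FOS and JUN families encode the subunits of AP-1, a transcription factor built from pairs of bZIP proteins. The 7 genes described here, FOS, FOSB, FOSL1, FOSL2, JUN, JUNB and JUND, were found by exact symbol among the 16376 genes of the deposited table. They are 4 FOS genes and 3 JUN genes, and all 7 were listed. Their mRNA was measured by poly(A)-selected RNA-seq in a line of human colon cancer cells, HCT116. There were 2 untreated samples (Control) and 2 samples treated with hydrogen peroxide (H2O2), a membrane-permeable oxidant. The labels give no dose, no exposure time and no word on whether the samples of a group were separate cultures, so p-values measure the spread between these samples, which may be technical. The table names its groups A and B. Its name puts control before H2O2, so A was read as Control, and every direction below depends on this reading.

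JUN proteins pair with each other or with FOS proteins through a leucine zipper, while FOS proteins need a JUN or another bZIP partner to bind DNA. The pairs bind the TPA response element and, less tightly, cyclic AMP response elements. FOS, FOSB, JUN and JUNB are immediate early genes, transcribed within minutes of growth factor or stress signals without new protein synthesis, and FOSL1 is itself a known AP-1 target that follows later. JUND is known for a steadier level in many cells. FOSB also makes a shorter form, delta FosB, which counts per gene do not separate.

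The promoters of the 3 genes with the highest fold change, FOSB, FOS and JUN, are printed with those of FOSL2 and JUND, the 2 genes that did not pass the authors' test, so that the elements before each start can be read beside the response. Each run is the 250 bases before the start, 5′ to 3′ on the gene's strand, from RefSeq on GRCh38.p14, which held a promoter for 6 of the 7 genes (FOSL1 was not among them). Capitals mark matches to the motifs named after the sequences.
FOSB, chr19:45467746-45467995, plus strand: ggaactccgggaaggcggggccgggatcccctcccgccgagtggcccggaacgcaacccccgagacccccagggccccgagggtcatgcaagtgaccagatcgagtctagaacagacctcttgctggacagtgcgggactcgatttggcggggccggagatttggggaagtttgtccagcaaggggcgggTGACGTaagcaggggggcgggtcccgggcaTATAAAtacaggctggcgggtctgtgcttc
FOS, chr14:75278578-75278827, plus strand: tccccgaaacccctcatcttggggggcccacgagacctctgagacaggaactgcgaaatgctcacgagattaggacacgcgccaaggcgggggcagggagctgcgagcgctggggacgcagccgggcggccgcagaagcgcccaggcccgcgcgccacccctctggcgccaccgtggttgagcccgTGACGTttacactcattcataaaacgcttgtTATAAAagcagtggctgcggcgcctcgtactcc
JUN, chr1:58784048-58784297, minus strand: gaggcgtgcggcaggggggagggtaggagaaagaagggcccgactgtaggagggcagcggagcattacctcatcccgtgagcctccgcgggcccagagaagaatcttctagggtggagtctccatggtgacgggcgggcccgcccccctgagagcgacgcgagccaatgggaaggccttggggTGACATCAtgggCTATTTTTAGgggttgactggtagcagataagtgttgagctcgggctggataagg
FOSL2, chr2:28392608-28392857, plus strand: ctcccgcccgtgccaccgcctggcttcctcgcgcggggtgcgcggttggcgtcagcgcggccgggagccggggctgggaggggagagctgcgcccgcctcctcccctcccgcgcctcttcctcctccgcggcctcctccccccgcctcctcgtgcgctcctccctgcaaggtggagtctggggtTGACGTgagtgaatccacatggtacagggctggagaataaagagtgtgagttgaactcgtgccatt
JUND, chr19:18281623-18281872, minus strand: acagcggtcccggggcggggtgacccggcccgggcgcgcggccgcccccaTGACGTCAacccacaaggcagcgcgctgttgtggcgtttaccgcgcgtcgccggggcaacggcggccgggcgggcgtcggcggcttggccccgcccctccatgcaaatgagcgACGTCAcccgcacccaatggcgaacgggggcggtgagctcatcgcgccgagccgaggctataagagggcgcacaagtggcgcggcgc

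The motifs searched on both strands were TGANTCA (the TPA response element), TGACNTCA (the full cyclic AMP response element and its JUN variant), TGACGT (the core of the cyclic AMP response element, which overlaps the full one), TATAAA, the CArG box bound by SRF and the MEF2 element. Of 35116 RefSeq promoters cut to the same 250 bases, 6.57% held TGANTCA, 6.87% TGACNTCA, 7.1% TGACGT, 10.7% TATAAA, 1.16% a CArG box and 2.8% a MEF2 element. TGACGT lay 60 to 55 bases before the start in FOSB, 64 to 59 in FOS and 66 to 61 in FOSL2. JUN held tgacatca, a match to TGACNTCA, at 67 to 60 bases and a MEF2 element at 55 to 46. JUND held the full TGACNTCA form at 200 to 193 bases and a further TGACGT core on the other strand at 87 to 82. TATAAA was found within 33 bases of the start in FOS, FOSB and JUNB, and it was the single match in JUNB. No CArG box and no TGANTCA was found in these 6 windows, and bases farther than 250 before the start were not searched. Such matches describe letters in the window. TGACGT was found in FOSB and FOS, which passed the authors' test, and in FOSL2 and JUND, which did not. JUN and JUNB, which passed, held none in the window. Any part of these elements in the response was not tested.

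With H2O2, 5 of the 7 genes rose in the authors' deposited table at an adjusted p under 0.05 and none fell, where 2.58% of all listed genes were called higher and 4.62% lower. As the 7 were chosen with earlier results of these data known, shares of all genes are given as context and not as a test. The 5 were FOSB, FOS, JUN, JUNB and FOSL1. JUND and FOSL2 did not pass. The counts of the 4 libraries were recovered from the deposited group means, and the libraries are called the deeper and the shallower of each group because the table carries no replicate numbers. Total counts over listed genes ran from 6858809 to 7365032. The Control libraries stood apart from each other: over the 12118 genes whose mean was at least 50, the median absolute log2 difference was 0.17 between them and 0.11 between the H2O2 libraries. The shallower Control library was about as far from the H2O2 libraries (0.16 from either) as from the deeper Control library, which was 0.23 and 0.22 from them. Calls, counts and list medians that move with a Control library are therefore also given without it. For all 7 genes both H2O2 libraries lay above both Control libraries, which was so for 26.3% of all listed genes. With 2 libraries against 2, an exact permutation test on a single gene cannot go below a two-sided p of 0.333, so the tests given are those fitted across all genes. limma on the recovered libraries also called 5 of the 7 higher, against 1.52% of all listed genes, and they were the same 5. The number called was 6 at a threshold of 0.1, where 10.1% of all listed genes were called, and 4 in limma with a pseudocount of 0.5 (4.05%) or total count scaling (4.09%). limma called 4 of the 7 without the deeper Control library (8.52% of all listed genes), 6 without the shallower one (22.2%), and 5 after leaving out either H2O2 library (1.73% for the deeper, 3.13% for the shallower). In RNA from whole cultures, a change in the share of cells expressing a gene and a change per cell cannot be told apart.

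**Figure D1:**
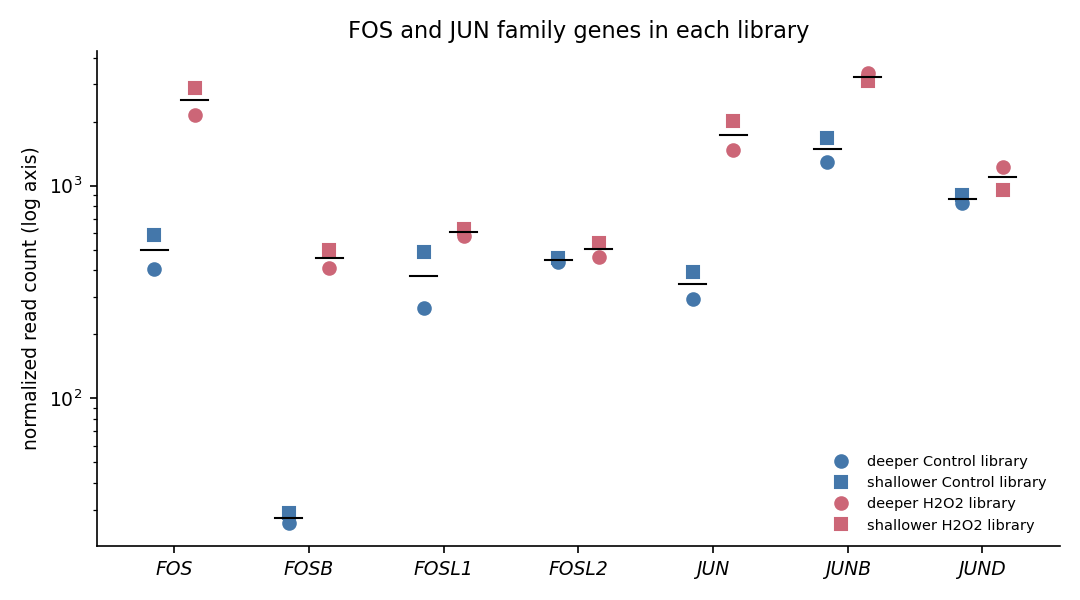
Normalized read counts (log axis) of the 7 genes in each library, Control in blue and H2O2 in red, circles for the deeper and squares for the shallower library, with a black bar at each group mean of 2 libraries. FOSB moves from a mean of 27.3 to 455, while the FOSL2 means are 448 and 501.

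Among the FOS genes, FOSB had the largest change. It had 25.9 and 28.7 normalized counts in the deeper and shallower Control libraries and 411 and 498 with H2O2, from 27 and 28 reads against 426 and 479. The groups were far apart, with the lower H2O2 value 14.3 times the higher Control value. FOSB rose by 4.06 in log2 in the authors' deposited table, and in limma, which works on log2(value + 1), the 95% interval ran from 3.62 to 4.39 (adjusted p = 6.44e-09). It had the smallest p but 1 of all genes in the authors' deposited table, at rank 2 of 16376.

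FOS, the first described member of the family, had 407 and 589 normalized counts in Control and 2157 and 2894 with H2O2. The shallower library was the higher in both groups, by 0.53 on the log2 scale in Control, a gap reached by 5.03% of the 12118 genes with a mean of at least 50, and by 0.42 with H2O2. The lower H2O2 value was still 3.66 times the higher Control value. FOS rose by 2.34 in log2 in the authors' deposited table and by 2.35 ± 0.16 in limma (SE, 2 libraries per group).

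FOSL1, which encodes FRA1, a FOS protein without the strong activation domain of FOS, rose less. It had 266 and 488 normalized counts in the deeper and shallower Control libraries and 581 and 624 with H2O2. The Control libraries thus differed by 0.87 on the log2 scale, more than the log2 fold change of 0.68 between the groups in the authors' deposited table (adjusted p = 9.06e-05). A gap as large between the Control libraries was seen in 0.52% of genes with a mean of at least 50. In limma FOSL1 stood just under the threshold, at 0.74 ± 0.20 (SE, 2 libraries per group, adjusted p = 0.0494). Its log2 fold change was 0.30 without the deeper Control library, where it did not pass (limma, adjusted p = 0.0683), and 1.18 without the shallower one, where it did.

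FOSL2, which encodes FRA2, had 439 and 458 normalized counts in Control and 463 and 539 with H2O2. The groups did not overlap, but the lower H2O2 value was 1.01 times the higher Control value. Its log2 fold change of 0.16 was short of the call in the authors' deposited table (adjusted p = 0.587) and in limma (adjusted p = 0.495), where the 95% interval ran from -0.10 to 0.42. The interval lies below the values of FOSB, FOS, JUN and JUNB and holds 0.

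Among the JUN genes, JUN had the largest change. It had 294 and 394 normalized counts in Control and 1463 and 2009 with H2O2. As for FOS, the shallower library was the higher in both groups, by 0.42 on the log2 scale in Control and 0.46 with H2O2, and a gap as large between the H2O2 libraries was seen in 2.92% of genes with a mean of at least 50. JUN rose by 2.33 ± 0.16 in limma (SE, 2 libraries per group), beside 2.35 ± 0.16 for FOS. By size of change, 1 gene with a mean of at least 50 rose more than FOSB, 4 more than FOS and 5 more than JUN in the authors' deposited table.

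JUNB, a JUN protein that activates less strongly than JUN in many settings, had the highest level of the 7. It had 1287 and 1678 normalized counts in Control and 3377 and 3109 with H2O2, so the lower H2O2 value was 1.85 times the higher Control value. In limma JUNB rose by 1.14 ± 0.13 in log2 (SE, 2 libraries per group), with an adjusted p of 1.52e-04. Its value is uncertain where reads cannot be assigned by strand, because 14.2% of its exonic bases are also exonic in HOOK2 on the opposite strand and the strand setting is not given in the sources used here. HOOK2 itself was short of the threshold in the authors' deposited table (log2 fold change 0.31, adjusted p = 0.122). None of the other 6 genes shared exonic bases with another gene. Of 50-base words in the longest transcript, 11.9% for JUNB and 3.64% for FOSL1 also occurred, on either strand, in transcripts of other genes. The stretch shared with HOOK2 enters the JUNB figure, which is therefore not a separate reason for doubt. No words of the other 5 genes were shared, so the counts of JUNB and FOSL1 are the less certain.

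JUND had 825 and 904 normalized counts in Control and 1228 and 958 with H2O2, so the shallower H2O2 library lay close to Control. Its log2 fold change of 0.34 was short of the call in the authors' deposited table (adjusted p = 0.0847) and in limma (adjusted p = 0.163), where the 95% interval ran from 0.058 to 0.60. Without the shallower Control library it passed in limma (log2 fold change 0.39, adjusted p = 7.26e-04), in the fit that called 22.2% of all listed genes.

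**Figure D2:**
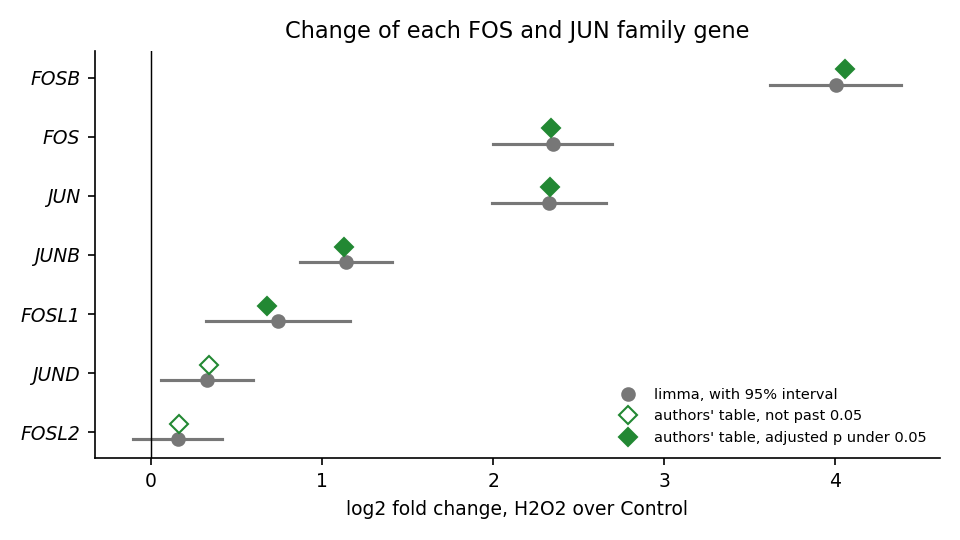
log2 fold change of H2O2 over Control for each gene, from the authors' deposited table (diamonds, filled where the adjusted p was under 0.05) and from limma (grey circles with 95% intervals). The order runs from FOSL2 at 0.16 to FOSB at 4.06 in the authors' deposited table, and the limma interval of FOSL2 is the one that reaches 0.

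**Figure D3:**
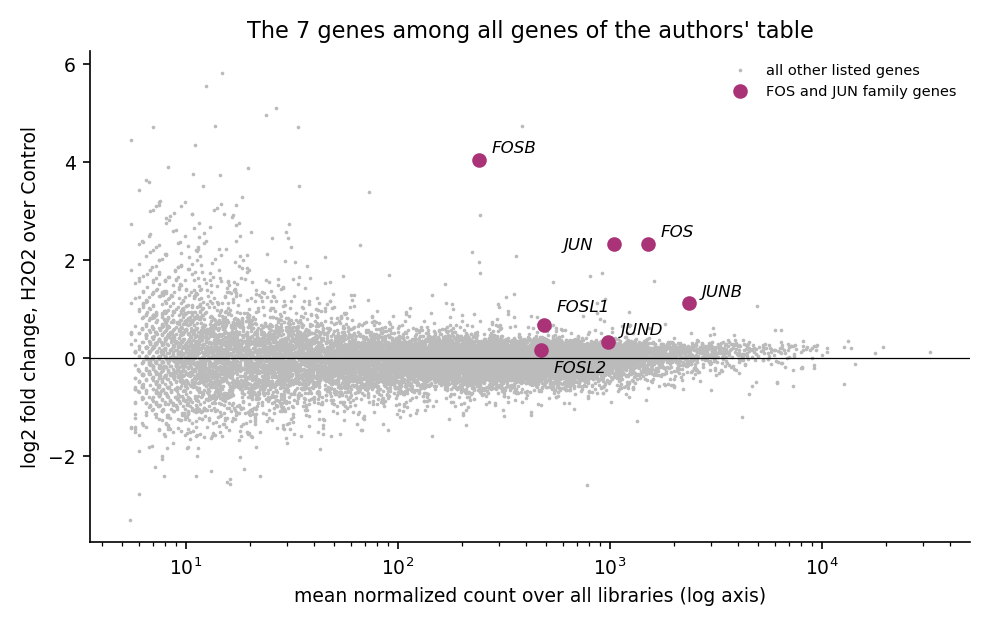
Mean normalized count over all libraries (log axis) against the log2 fold change in the authors' deposited table for all listed genes (grey) and the 7 genes (purple), leaving out 1 gene at 0 in Control. FOSB, FOS, JUN and JUNB stand above the bulk of genes of similar mean, and FOSL2 and JUND lie close to it.

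To compare the genes with each other, normalized counts were divided by exonic length in kilobases (GENCODE release 29). In Control the order of these levels per kilobase was JUNB at 815 ± 152 (SD, n = 2, as for the values that follow), JUND at 464 ± 30.0, FOSL1 at 200 ± 83.2, FOS at 154 ± 39.7, JUN at 97.2 ± 19.96, FOSL2 at 62.7 ± 1.86 and FOSB at 4.92 ± 0.364. FOSL1 and FOS overlapped between libraries, and the other neighbours in the order did not. Among the 13286 genes with a length, FOSB stood at percentile 9.19 in Control and JUNB at 98.5.

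With H2O2 the order of levels per kilobase was JUNB at 1782 ± 104 (SD, n = 2, as for the values that follow), FOS at 780 ± 161, JUND at 587 ± 102, JUN at 490 ± 109, FOSL1 at 319 ± 16.1, FOSB at 81.9 ± 11.1 and FOSL2 at 70.0 ± 7.46. JUND and JUN overlapped between libraries, and so did FOSB and FOSL2. By group means FOS moved past FOSL1 and JUND, JUN past FOSL1, and FOSB past FOSL2, with which it overlapped. The step of FOS past FOSL1 depended on the length used. With the longest transcript, the mean share of FOS in the FOS family level in Control was 43.8%, above the 41.7% of FOSL1. FOS reached percentile 98.1 of levels per kilobase, JUN 95.8 and FOSB 64.9, while JUNB was at 99.5.

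The makeup of each family's summed level per kilobase also differed between the groups. FOS made up 37.8% and 35.7% of the FOS family level in the deeper and shallower Control libraries and 59.9% and 64.3% with H2O2. FOSL1, the main FOS gene by this measure in Control at 42.3% and 50.7%, made up 27.7% and 23.8% with H2O2. Its lead in Control depended on the length used: with the longest transcript in place of all exonic bases, the mean share of FOS in Control was 43.8% and that of FOSL1 41.7%. FOSB went from 1.40% and 1.02% to 6.65% and 6.46%, and FOSL2 from 18.4% and 12.6% to 5.82% and 5.42%. For each of these 4 genes the shares of the groups did not overlap. The shares are parts of the same sum, so higher shares of FOS and FOSB entail lower shares of the others. The mean levels per kilobase of FOSL1 (200 in Control, 319 with H2O2) and FOSL2 (62.7 and 70.0) were not themselves lower.

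In the JUN family, JUNB made up 57.3% and 60.7% in Control and 63.4% and 61.2% with H2O2. JUN went from 6.74% and 7.33% to 14.1% and 20.3%, and JUND from 35.9% and 32.0% to 22.5% and 18.4%. JUNB had the largest share in every library. The mean share of JUN was 10.2 percentage points higher with H2O2, that of JUNB 3.27 higher and that of JUND 13.5 lower. The mean level per kilobase of JUND itself was 464 in Control and 587 with H2O2. Without division by length the difference for JUNB turned to -1.52 points, so no direction is given for it. The summed level per kilobase of the FOS genes with H2O2 was 2.97 times that in Control and that of the JUN genes 2.08 times. The ratio of the JUN sum to the FOS sum was 3.71 and 2.98 in Control and 2.63 and 2.01 with H2O2. With the longest transcript in place of all exonic bases, the FOS sum with H2O2 was 3.25 times that in Control. The ratio was then 2.94 and 2.37 in Control and 1.92 and 1.45 with H2O2. These are levels of mRNA scaled by length and do not measure the proteins or the pairs they form. The shares and ratios were not tested.

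**Figure D4:**
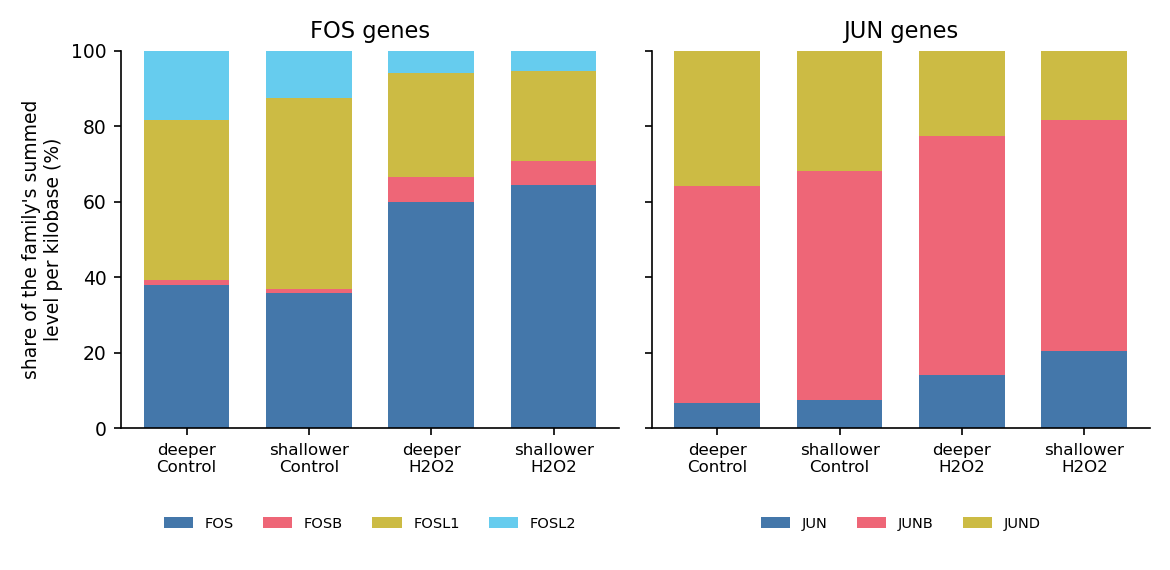
Share of each gene in the summed level per kilobase of the FOS genes (left) and the JUN genes (right), in percent, one bar per library. The mean share of FOS goes from 36.8% to 62.1% and passes that of FOSL1 (with longest-transcript lengths FOS leads in Control too), and JUNB stays the largest JUN share.

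By the distance between centred log2 profiles over the 4 libraries, FOS and JUN lay 0.084 apart, closer than any other pair of the 7. Outside the 7, the genes most like FOS were NR4A3, a nuclear receptor, and the MAP kinase phosphatases DUSP2 and DUSP1, at distances of 0.23, 0.32 and 0.39. The same 3 genes in the same order were nearest to JUN outside the 7, at 0.30, 0.30 and 0.37. DUSP2, for example, had 117 and 157 normalized counts in Control and 548 and 620 with H2O2. JUNB lay nearest to HBEGF, an EGF receptor ligand (distance 0.12), then to GPR3 (0.19) and MOAP1 (0.21). FOSL1 was nearest to CDKN1A, which encodes the CDK inhibitor p21 (0.15), then to CTB-58E17.1 (0.19) and PHLDA2 (0.20). CDKN1A had 3783 and 6506 normalized counts in Control and 7115 and 8287 with H2O2, with a gap between the Control libraries in the same direction as that of FOSL1. The rows nearest to FOSB lay farther away, with MIR663A at 0.77, EGR2 at 1.12 and BZRAP1 at 1.37, among 12111 candidate genes.

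Other bZIP genes, whose proteins pair with FOS or JUN proteins or bind related elements, were partly higher. Of 18 listed members of this list of 20, 6 rose in the authors' deposited table, where 2.58% of all listed genes did. The list was made with earlier results of these data known, so the 2 shares do not form a test. None fell and 12 missed the threshold, with a median log2 fold change of 0.14 against 0.00029 over all listed genes. ATF3, a stress-induced partner of JUN proteins, had 409 and 435 normalized counts in Control and 1303 and 1518 with H2O2. In limma ATF3 rose by 1.73 ± 0.12 in log2 (SE, 2 libraries per group), with an adjusted p of 6.80e-07. DDIT3, which encodes CHOP, rose 2.31-fold, MAFF, a small MAF protein, 1.59-fold and CREM, a cyclic AMP response factor, 1.56-fold in the authors' deposited table. Leaving out the deeper H2O2 library took MAFF (adjusted p = 0.0949) and CREM (adjusted p = 0.245) above 0.05 in limma, and leaving out the shallower one did so for CREM (adjusted p = 0.0572). BATF2, named here after its values were seen, also rose, with 31 and 26 reads in Control against 65 and 47 with H2O2. In the authors' deposited table ATF2 and ATF7, JUN partners that bind cyclic AMP response elements, had log2 fold changes of 0.039 and -0.15 and missed the threshold. Without the deeper H2O2 library limma called 3 of the list, in the fit that called 1.73% of all listed genes. Leaving out the deeper Control library moved the median to 0.25, and leaving out the shallower one moved it to 0.082.

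Textbook AP-1 target genes were higher in part. Of 24 listed members of this list of 30, 7 rose in the authors' deposited table, where 2.58% of all listed genes did. Because the list was drawn up with earlier results of these data known, this comparison is not independent support. None fell and 17 missed the threshold, with a median log2 fold change of 0.19. That median was 0.050 without the deeper Control library and 0.41 without the shallower one. limma called 4 of them higher, against 1.52% of all listed genes. Between the Control libraries the median gap of the list was 0.22 in log2, with the shallower library higher. HBEGF had 97.8 and 130 normalized counts in Control and 241 and 250 with H2O2 and rose 2.15-fold in the authors' deposited table. IL8, a chemokine gene, rose 2.27-fold there. PLAUR, the urokinase receptor gene, and HMOX1, the heme oxygenase 1 gene, rose 1.46-fold and 1.37-fold there, and limma called neither (adjusted p = 0.0521 and 0.0892). Nor did limma call IL8 once the shallower H2O2 library was left out (adjusted p = 0.165). Also risen, and named after their values were seen, were PTGS2, which encodes cyclooxygenase 2, with 18 and 9 reads in Control against 47 and 56 with H2O2, and PLAU, the urokinase gene, at 1.33-fold in the authors' deposited table. CCND1 and CD44, also known as AP-1 targets, stood at log2 fold changes of -0.016 and -0.040 there and missed the threshold. Without the shallower Control library limma called 13 of the list, 12 higher and 1 lower, where it called 22.2% of all listed genes, and without the shallower H2O2 library 3, where it called 3.13%.

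Genes of the kinases and factors that act on FOS and JUN promoters or proteins were mostly not past the threshold. Of 29 listed members of this list of 30, none rose in the authors' deposited table, 1 fell and 28 missed the threshold, with a median log2 fold change of -0.068. Over all listed genes the authors' test called 2.58% higher and 4.62% lower. MAP2K2, which encodes the ERK kinase MEK2, was the 1 that fell, in the authors' deposited table to 0.606 of Control. MAP2K2 had 200 and 241 normalized counts in Control and 133 and 134 with H2O2. limma no longer called MAP2K2 after leaving out the deeper (adjusted p = 0.0805) or the shallower H2O2 library (adjusted p = 0.0502). In the authors' deposited table MAPK8, which encodes the JUN kinase JNK1, and SRF, the factor of the serum response element, had log2 fold changes of -0.17 and 0.16 and missed the threshold. These are mRNA levels and do not measure kinase activity. Without the shallower Control library limma called 5 of the list, 2 higher and 3 lower, a smaller share than the 22.2% called of all listed genes. Without the deeper one it called 3, all lower, against 8.52%, and with either H2O2 library left out none, against 1.73% and 3.13%. The list's median was -0.11 without the shallower Control library and -0.062 without the deeper one.

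Of 18 genes that act on the turnover of AP-1 mRNAs and proteins, none rose in the authors' deposited table, 1 fell and 17 missed the threshold, with a median log2 fold change of 0.11. Of all listed genes, 2.58% were called higher there and 4.62% lower. The 1 that fell was FBXW7, which encodes a ubiquitin ligase subunit whose known substrates include JUN. It had 354 and 342 normalized counts in Control and 206 and 256 with H2O2. In limma FBXW7 fell by 0.60 in log2 (adjusted p = 0.0274), a call that was lost without the deeper H2O2 library (adjusted p = 0.41). In the authors' deposited table ZFP36, which encodes an mRNA decay factor that binds AU-rich elements such as those of FOS, had a log2 fold change of 0.18 and missed the threshold. Without the shallower Control library limma called 8 of this list, 5 higher and 3 lower, in the fit that called 22.2% of all listed genes, and without the deeper H2O2 library none, against 1.73%. Leaving out the deeper Control library moved the median to 0.050, while it was 0.11 after leaving out the shallower one.

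**Figure D5:**
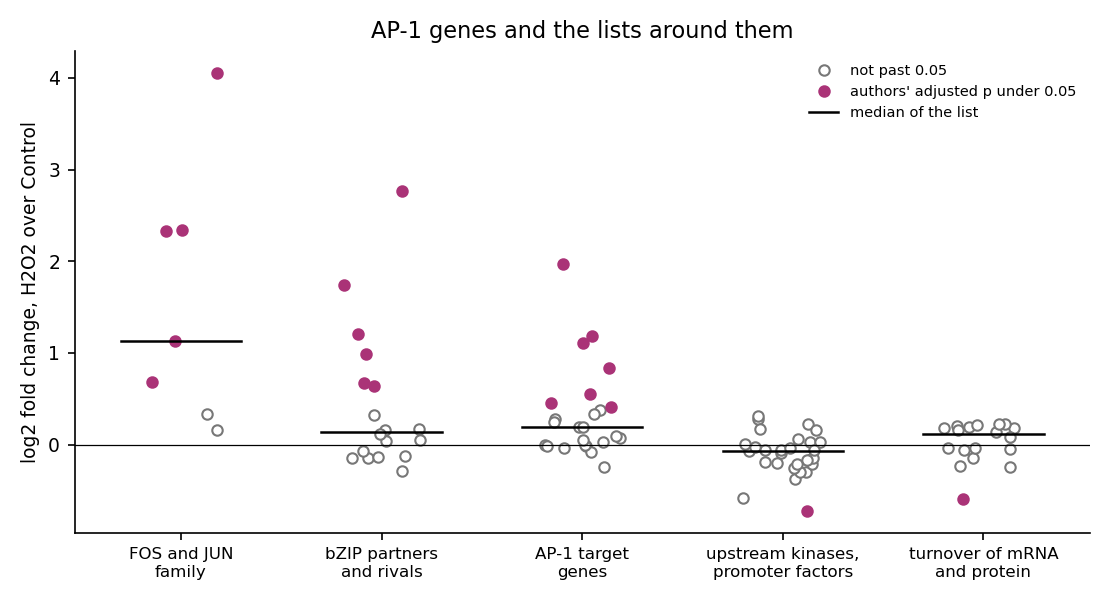
log2 fold change of H2O2 over Control in the authors' deposited table for each listed gene of the 5 lists, filled where the adjusted p was under 0.05, with a bar at each list's median. The medians are 1.13 for the FOS and JUN genes, 0.14 for the bZIP genes, 0.19 for the targets, -0.068 for the upstream genes and 0.11 for the turnover genes.

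The labelled cell type was checked against markers. Of 13 colon epithelial markers, 11 were listed, and CDX1 and LGALS4 were not. A mean of at least 50 was reached by 10, EPCAM, CDH1 and KRT8 among them, while KRT20 had a mean of 9.11. Summed normalized counts of the listed epithelial markers ran from 10883 to 12827 in Control and from 13628 to 14324 with H2O2. Of 8 fibroblast markers 3 were listed, with sums from 933 to 1017 in Control and from 754 to 813 with H2O2. Of these, 2 had a mean of at least 50, COL1A1 at 653 and COL3A1 at 207. Of 9 blood and immune markers 2 were listed, with sums from 9.59 to 13.3 and from 15.6 to 25.1, and of 5 endothelial markers 1, with sums from 6.16 to 6.71 and from 8.32 to 13.5. The 3 markers called in the authors' deposited table, named after their values were seen, were CLDN4, an epithelial claudin gene, at a log2 fold change of 0.47, COL1A1, a collagen gene, at -0.45, and CD14, a monocyte gene, at 1.87 from a mean of 9.15. The part of such markers in the change of the FOS and JUN genes was not tested.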

How the data were processed

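Samples were grouped by their titles. Build hg19 and, among other tools, STAR, HTSeq and DESeq are named per the submitters' processing notes. The roles of the tools are not stated there, nor are annotation and strand setting. The deposited table holds a signal, the authors' means of normalized counts per group, per the file headers. It also holds, as deposited by the authors, the ratio of the 2 means, its log2, and a p-value with its adjustment. The lowest mean listed was 5.46, and genes below it are not analysed here.

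Whole counts were recovered from each group mean, as the 2 counts that give it to within 1e-09 at that group's 2 size factors. All 16376 genes had 1 solution in each group. Size factors recomputed from these counts matched. The main test was the authors' DESeq test (adjusted p under 0.05 over all listed genes). limma 3.58.1 (R 4.3.3, mean-variance trend, log2(normalized count + 1), Benjamini-Hochberg adjustment) was the alternative. It was checked on data simulated with equal spread in both groups, whereas here the Control libraries differed more than the H2O2 libraries.

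The members and lists were chosen with earlier results of these data known. Named genes are the 7 members and, of each list, those called with a mean of at least 50, at most 5 a direction. For each member past the threshold, the 3 genes with the smallest Euclidean distance are also named. Any other gene was chosen for naming after its values were seen, and 2 called genes of the lists are not reported here. Lengths and exon overlaps came from GENCODE release 29, which is on another build, and 81.1% of listed genes had a length.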

Additional observations from a re-analysis of the deposited data

How the results depend on the processing

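All 7 log2 fold changes stayed above 0 under limma with 3 pseudocounts, total count or upper quartile scaling, and with each library left out. FOSB, FOS, JUN and JUNB passed in each of these 9 fits. FOSL1 did not pass with a pseudocount of 0.5 (0.74, adjusted p = 0.0515) or total count scaling (0.72, 0.0631), and ran from 0.30 to 1.18 with a library left out. JUND ran from 0.15 to 0.51 and FOSL2 from 0.047 to 0.26. The number of the 7 called ran from 4 to 6 over all alternatives, 6 at a threshold of 0.1. Of the upstream genes, 2 were called at a threshold of 0.1, where 10.1% of all listed genes were called. Of the target genes, limma called 4 with a pseudocount of 1 or 0.5 or with total count scaling. With a library left out, limma called 3 to 6 bZIP genes, 0 to 5 upstream genes, 0 to 8 turnover genes and 3 to 13 target genes. These fits called from 1.73% to 22.2% of all listed genes. The counts of 5, 8 and 13 came from the fit without the shallower Control library, which called the 22.2%. The share of FOSB in the FOS genes was higher with H2O2 by 5.35 percentage points with exonic lengths and by 5.58 with the longest transcript. With no division by length the differences were 9.10 for FOSB, -12.4 for FOSL1, -21.6 for FOSL2, 15.9 for JUN and -1.52 for JUNB, the 1 that turned. These choices were made after seeing the data, as was leaving libraries out of shares and list medians. The causes were not tested. Leaving out a library leaves a lone library, assumed to vary like the others. No paired analysis was possible because the table does not tie values to replicate numbers. Depth limits FOSB in Control most, at 27 and 28 reads.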
